A study of Mus musculus with 12 samples.

Results

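The 9 genes described here encode factors that prepare replication origins, together with the ubiquitin ligase parts and substrates that switch this preparation off: Cdt1, Cdc6, Orc1, Orc6, Gmnn, Dtl, Ddb1, Pcna and Kmt5a. They were chosen by symbol, 9 of the 24770 gene symbols in the table, and all 9 were found. RNA abundance was measured in 12 libraries of GC-2, an immortalised mouse line labelled as type B spermatogonia with a wild type genotype, grown in DMEM with fetal bovine serum. The groups of 3 libraries were MLN4924 with hypoxia, DMSO with hypoxia, MLN4924 with normoxia, and DMSO with normoxia. MLN4924 was given at 1 µM, DMSO is its solvent, hypoxia was 1% O2 for 24 h, and the oxygen level of normoxia is not given in the sources used here. The design asks what hypoxia and the inhibitor do alone and together. Below, a change with MLN4924 in hypoxia or in normoxia is against DMSO at the same oxygen level, a change in hypoxia under MLN4924 or under DMSO is against normoxia with the same agent, and a change with both agents is MLN4924 hypoxia against DMSO normoxia. The submitters call the 3 libraries of a group biological replicates, but the labels name no separate cultures, so p-values measure the spread between these libraries.

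Before DNA replication, the origin recognition complex (which holds Orc1 and Orc6), Cdc6 and Cdt1 load the MCM2-7 helicase onto origins, a step called licensing. Geminin (Gmnn) binds Cdt1 and prevents a second loading in the same cycle. In S phase the cullin-RING ligase CRL4, built from a CUL4 scaffold, the adaptor Ddb1 and the receptor Dtl (Cdt2), marks Cdt1, the histone H4K20 methyltransferase Kmt5a (SET8) and the kinase inhibitor Cdkn1a (p21) for destruction while they sit on chromatin-bound Pcna. MLN4924 inhibits the NEDD8-activating enzyme, and cullins without NEDD8 are not active, so the drug is known to stabilise the Cdt1 and Kmt5a proteins. The values below are RNA levels, and protein was not measured.

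DMSO hypoxia replicate 1 differed from the rest. Levels are in FPKM, a fragment measure scaled to transcript length and library size, and they summed to 633597 there, against 530452 to 557779 in the remaining 11 libraries. With the 2 others of its group it had a mean Spearman correlation of 0.926, the rest of that group reached 0.949 and 0.95, and the other 9 libraries at least 0.977. Its deviations from the group mean followed transcript length (rho = -0.401 across genes). Among the 9 genes its value over the mean of replicates 2 and 3 ran from 0.744 for Ddb1 to 1.59 for Gmnn, with Orc6 at 1.51 and Pcna at 1.35. Calls are therefore given with all 12 libraries and, where they change, without this one. The part of transcript length in the results was not tested.

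The cell type label was checked against marker genes. Of the spermatogonial markers with a row, Kit, Sohlh1, Sohlh2 and Ddx4 stayed under 1 FPKM in every library, and 2 of 6, Gfra1 and Uchl1, reached 1 FPKM in 3 libraries. Their summed level was 12 to 16.7 FPKM with MLN4924 in hypoxia, 15.3 to 26.1 with DMSO in hypoxia, 15 to 17.5 with MLN4924 in normoxia and 17.5 to 19.6 with DMSO in normoxia. Of the fibroblast markers, 6 of 8 (Col1a1, Col1a2, Col3a1, Pdgfra, Pdgfrb, Fn1) were expressed, with sums of 1500 to 1530, 1250 to 1760, 1030 to 1060 and 1360 to 1400 FPKM in the same order of groups. Dcn and Thy1 stayed under 1 FPKM in every library, and Lum had no row. Most defining germ cell markers that have a row were thus under 1 FPKM. Stra8, Dmrt1, Zbtb16 and Dazl of the spermatogonial list had no row, nor had Dmc1, Acr, Prm1, Prm2 and Tnp1 of the later germ cell list. All sample titles say GC-2, while the number in the cell type label rises from library to library, and the cells are called GC-2 below. Spermatocyte and spermatid markers summed to at most 1.94 FPKM in any library, with Sycp1 and Sycp3 under 1 FPKM throughout. Sertoli markers, of which Sox9, Wt1, Gata4 and Rhox5 were detected and Amh and Fshr were not above 1 FPKM, summed to 11.1 to 15.4, 21.8 to 25, 8.56 to 12.9 and 15.2 to 18 FPKM, again in that order. Leydig markers (1 of 4, Star) and macrophage markers (2 of 4, Cd68 and Cd14) summed to at most 12.1 and 14.5 FPKM. No listed marker with a row was at 0 in every library. The part of these markers in the results was not tested.

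The promoters of Cdt1, Cdc6 and Kmt5a are shown because these 3 genes passed the threshold in all 3 comparisons of MLN4924 hypoxia with another group, Cdt1 and Cdc6 higher and Kmt5a lower. E2F factors switch on genes at the entry to S phase. The sequences are RefSeq promoters of build GRCm38.p6, 250 bases before to 50 after the transcript start, and capitals mark the E2F letters searched on both strands (the letters TTCCCGC, the letters TTGGCGC, the letters TTGCCGC and the letters TTCGCGC).
Cdt1, chr8:122567765-122568064, plus strand: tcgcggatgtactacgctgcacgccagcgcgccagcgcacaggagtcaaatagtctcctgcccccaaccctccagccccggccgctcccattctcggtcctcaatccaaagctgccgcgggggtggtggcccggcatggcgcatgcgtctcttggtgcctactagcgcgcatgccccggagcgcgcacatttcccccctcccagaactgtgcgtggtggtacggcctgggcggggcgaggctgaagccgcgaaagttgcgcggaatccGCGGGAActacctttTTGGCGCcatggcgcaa
Cdc6, chr11:98907901-98908200, plus strand: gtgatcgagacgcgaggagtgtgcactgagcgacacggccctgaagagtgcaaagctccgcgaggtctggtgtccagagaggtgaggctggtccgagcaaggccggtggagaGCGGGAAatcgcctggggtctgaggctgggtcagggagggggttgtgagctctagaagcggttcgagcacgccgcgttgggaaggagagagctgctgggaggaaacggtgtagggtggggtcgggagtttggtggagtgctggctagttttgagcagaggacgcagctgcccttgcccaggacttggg
Kmt5a, first of 3 promoters, chr5:124439680-124439979, plus strand: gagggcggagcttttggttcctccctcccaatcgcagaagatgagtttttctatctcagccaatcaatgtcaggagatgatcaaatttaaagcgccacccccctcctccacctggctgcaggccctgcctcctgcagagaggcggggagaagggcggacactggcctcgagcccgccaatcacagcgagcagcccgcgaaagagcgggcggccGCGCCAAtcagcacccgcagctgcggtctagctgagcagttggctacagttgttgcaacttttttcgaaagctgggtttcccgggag
In the Cdt1 promoter the 2 matches begin 19 and 34 bases into the transcript. The Cdc6 match begins at -138 and the Kmt5a match at -37, where it overlaps a CCAAT box that begins at -34. The table matched 8 of the 9 genes with 10 promoters in all, Gmnn being the gene not matched. An E2F match was present in 5 of the 10, those of Cdt1, Cdc6, Dtl, Orc1 and the first of Kmt5a, and in 9.57% of all 32851 promoters of the same length. The Dtl promoter held 2 matches, at -109 and -7, and that of Orc1 held 1, at -27. The core letters of the hypoxia response element (ACGTG or GCGTG, which HIF binds) were found in 43.8% of all promoters and CCAAT in 37.4%. Cdt1 held 2 matches to the hypoxia response core, at -231 and -40, Cdc6 held 1 at -71, and the printed Kmt5a promoter held none but 4 CCAAT boxes. The second Kmt5a promoter, not printed, held 3 matches to the hypoxia response core. Ddb1 and Orc1 held 2 each and Dtl and Orc6 held 1 each, while Pcna and the third Kmt5a promoter held none. These matches describe letters, not binding.

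Per transcript length, the 9 RNAs covered a wide range of levels in DMSO normoxia. Pcna, the sliding clamp, averaged 325 ± 12.4 FPKM (SD, n = 3, as for all group means here), Ddb1 240 ± 2.41 and Orc6 137 ± 4.82 FPKM, each above at least 95.5% of the tested genes. Cdt1 (43.3 ± 2.51), Gmnn (39.1 ± 0.571), Kmt5a (26.6 ± 0.862), Dtl (22.4 ± 1.15) and Cdc6 (18.6 ± 1.27 FPKM) lay between the percentiles 68.5 and 85.2 of the tested genes. Orc1 was lowest at 6.93 ± 0.623 FPKM, at percentile 41.8. Between the group with the highest mean and that with the lowest, the difference was 2-fold for Gmnn, 1.52-fold for Cdc6, 1.47-fold for Kmt5a and 1.39-fold for Cdt1, and between 1.16-fold (Orc1) and 1.33-fold (Orc6) for the other 5 genes. The samples are bulk RNA, so a change in the share of cells in a cycle phase and a change in RNA per cell cannot be told apart.

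**Figure D1:**
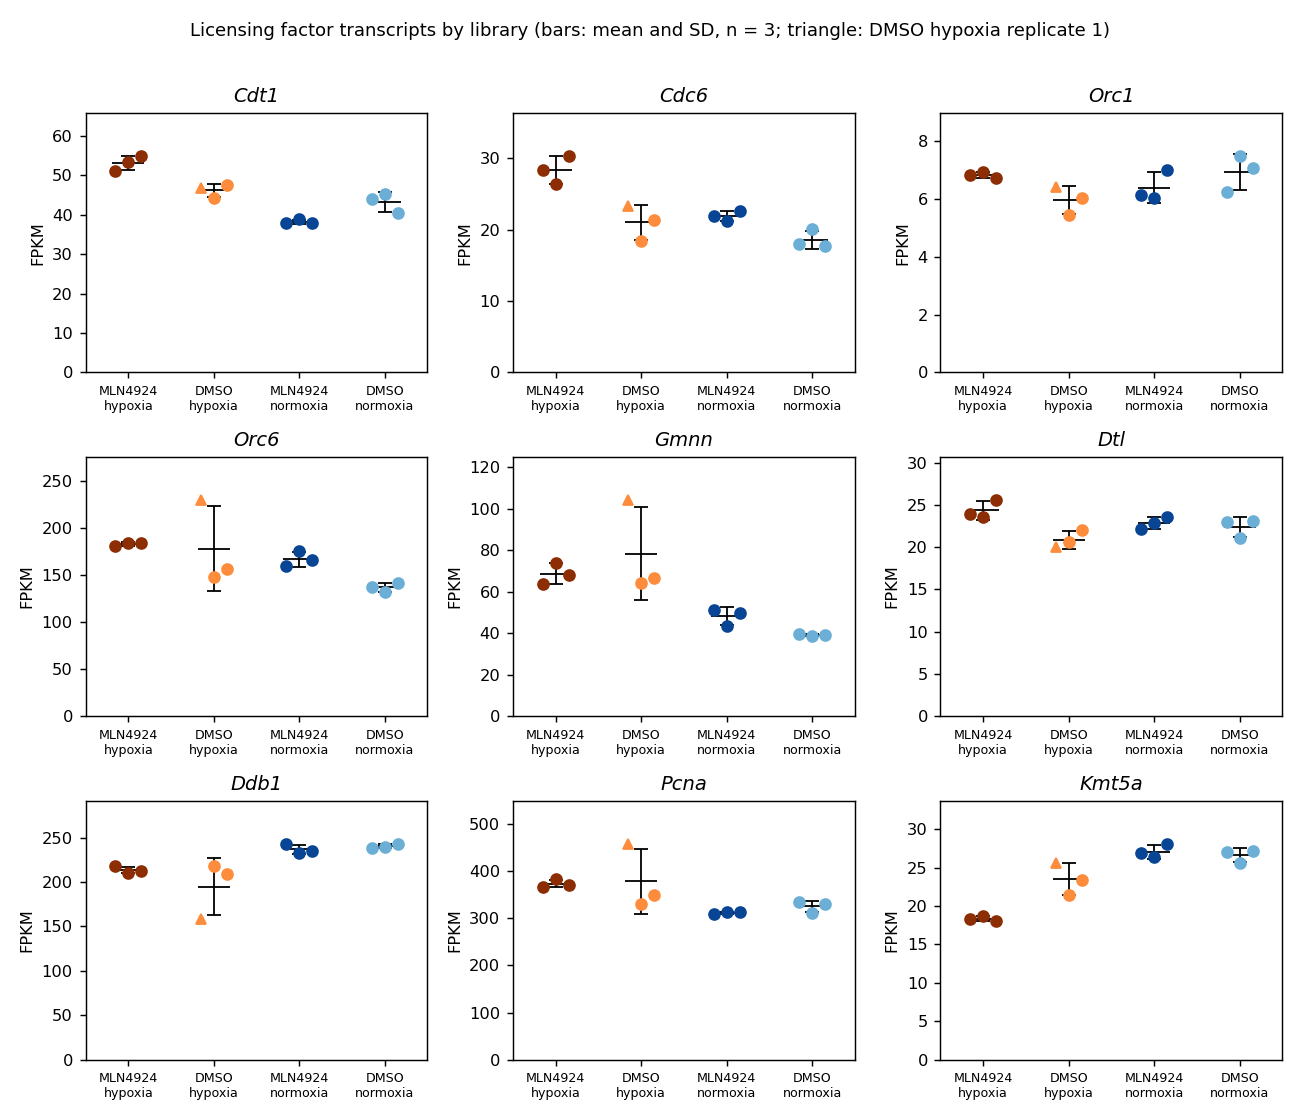
FPKM of the 9 genes (linear axis from 0) in each library of the 4 groups, with the group mean and SD (n = 3). DMSO hypoxia replicate 1, drawn as a triangle, is the highest library of its group for Gmnn, Orc6, Pcna, Kmt5a, Cdc6 and Orc1 and the lowest for Ddb1 and Dtl. The 3 MLN4924 hypoxia libraries lie above all others for Cdt1 (51.16 to 54.83 FPKM) and Cdc6 (26.35 to 30.27) and below all others for Kmt5a (18.1 to 18.73).

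Cdt1, which brings the MCM helicase to the origin, was highest with both agents together. It had 51.16, 53.5 and 54.83 FPKM with MLN4924 in hypoxia, 46.7, 44.37 and 47.68 with DMSO in hypoxia, 37.82, 38.88 and 37.98 with MLN4924 in normoxia, and 44.07, 45.29 and 40.47 with DMSO in normoxia. The 2 MLN4924 groups were the highest and the lowest of the 4, with no overlap with any other group, while both DMSO groups overlapped. Within hypoxia Cdt1 rose with MLN4924 by a log2 fold change of 0.20 ± 0.056 (SE, 1.146-fold on the scale of FPKM + 1, limma adjusted p = 0.0261). Within normoxia the value with MLN4924 was lower than with DMSO (log2 fold change -0.17, 95% interval -0.30 to -0.05), with an adjusted p of 0.052 in limma, or 0.0221 without DMSO hypoxia replicate 1. Between the oxygen levels Cdt1 rose 1.38-fold with MLN4924 (0.47 ± 0.056, limma adjusted p = 0.000205), while with DMSO the log2 difference was 0.10 (limma adjusted p = 0.216, 95% interval -0.03 to 0.22). Against DMSO normoxia, both agents together gave 0.29 ± 0.056 (limma adjusted p = 0.00225). The rise with MLN4924 within hypoxia lost its call without DMSO hypoxia replicate 2 and without MLN4924 hypoxia replicates 2 or 3 (limma adjusted p up to 0.0966), and in a fit of those 2 groups alone (0.133). A block for replicate number also lost it.

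The MLN4924 differences in Cdt1 RNA had opposite signs at the 2 oxygen levels, and the difference between them was tested. The interaction was 0.37 ± 0.079 on the log2 scale (95% interval 0.20 to 0.54, limma adjusted p = 0.0449), and Cdt1 was the only 1 of the 9 genes past 0.05, where 1.88% of all 12311 tested genes were (0.958% positive and 0.926% negative). Leaving out DMSO hypoxia replicate 1 gave 0.38 (adjusted p = 0.0189 in limma) and Kmt5a also passed, at -0.30 (limma adjusted p = 0.0402, against -0.36 and 0.0966 with all libraries), where 5.51% of all genes did (3.3% positive and 2.21% negative). The call for Cdt1 was lost when any of 10 of the 12 libraries was left out, with values of 0.34 to 0.42 and limma adjusted p up to 0.127. It was also lost without a filter on low values, under both scalings tried, without the intensity trend and with a block for replicate number. Kmt5a passed with array weights and in 2 of the 12 fits that left out 1 library. The other 7 genes had interaction values between -0.45 (Gmnn, limma adjusted p = 0.391, or -0.225 and 0.266 without DMSO hypoxia replicate 1) and 0.27 (Orc1, limma adjusted p = 0.364).

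Cdc6, the ATPase that recruits Cdt1 with the MCM complex to origins, was also highest with both agents. Its libraries had 28.39, 26.35 and 30.27 FPKM with MLN4924 in hypoxia, 23.29, 18.43 and 21.35 with DMSO in hypoxia, 21.92, 21.24 and 22.56 with MLN4924 in normoxia, and 17.98, 20.06 and 17.75 with DMSO in normoxia. The first group overlapped no other, and the other 3 overlapped their neighbours in level. Cdc6 rose with MLN4924 in hypoxia (log2 fold change 0.42 ± 0.089, 1.336-fold, limma adjusted p = 0.00661, or 0.0642 in a fit of those 2 groups alone) and with both agents against neither (0.58 ± 0.089, 1.497-fold, limma adjusted p = 0.000557). It rose in hypoxia under MLN4924 (0.35 ± 0.089 against MLN4924 normoxia, limma adjusted p = 0.0132), a call lost without MLN4924 hypoxia replicate 3 (limma adjusted p = 0.0558). In normoxia MLN4924 gave 0.23 ± 0.089 (limma adjusted p = 0.103, or 0.0364 without DMSO hypoxia replicate 1). Hypoxia under DMSO gave 0.16 (limma adjusted p = 0.179). Unlike for Cdt1, both differences with MLN4924 were positive, and the interaction of 0.19 had a 95% interval of -0.09 to 0.47.

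The 2 subunits of the origin recognition complex among the 9 genes differed in level. Orc1, the ATPase subunit, had 6.72 to 6.92 FPKM with MLN4924 in hypoxia, 5.45 to 6.4 with DMSO in hypoxia, 6.02 to 7 with MLN4924 in normoxia and 6.25 to 7.47 with DMSO in normoxia, and no comparison passed the threshold (limma adjusted p between 0.136 and 0.902). Orc6, a small subunit needed for MCM loading, had 180.92, 183.41 and 184.08 FPKM with MLN4924 in hypoxia and 229.38, 147.23 and 156.45 with DMSO in hypoxia. In normoxia Orc6 had 159.37, 175.3 and 165.49 FPKM with MLN4924 and 137.05, 132.23 and 141.86 with DMSO. The 3 DMSO normoxia libraries were lower than all others. Orc6 rose with both agents together against neither (0.41 ± 0.133, 1.332-fold, limma adjusted p = 0.0327), a call lost without any 1 of the 6 libraries compared (limma adjusted p up to 0.093). With DMSO hypoxia replicate 1 left out, Orc6 also rose with MLN4924 in normoxia (0.28, limma adjusted p = 0.00065, against 0.174 with all libraries) and with MLN4924 in hypoxia (0.27, limma adjusted p = 0.00188, against a value of 0.07 with all libraries). In hypoxia under DMSO it then rose by 0.15 (limma adjusted p = 0.0312), against 0.34 and 0.0693 with all libraries. That comparison also passed with all libraries under either scaling and with array weights. In each library Orc6 FPKM was 17.7 to 35.8 times that of Orc1, and the group means of Orc2, Orc3, Orc4 and Orc5 lay between 6.03 and 16.2 FPKM, near Orc1 and below Orc6.

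Gmnn, the inhibitor of Cdt1, showed the widest change of the 9 genes. It had 63.8, 73.88 and 67.97 FPKM with MLN4924 in hypoxia, 104.13, 64.2 and 66.46 with DMSO in hypoxia, 51.36, 43.44 and 49.76 with MLN4924 in normoxia, and 39.65, 38.51 and 39.15 with DMSO in normoxia. All 6 hypoxia libraries were above all 6 normoxia libraries. Gmnn rose in hypoxia under DMSO by a log2 fold change of 0.95 ± 0.155 (1.928-fold, limma adjusted p = 0.00112) and by 0.73 without DMSO hypoxia replicate 1 (limma adjusted p = 6.07e-05). With MLN4924 the rise in hypoxia was 0.50 ± 0.155 (1.415-fold, limma adjusted p = 0.0346), and this call was lost when any of 8 libraries was left out (limma adjusted p up to 0.118). Both agents against neither gave 0.79 ± 0.155 (1.731-fold, limma adjusted p = 0.00261). MLN4924 in normoxia gave 0.29 ± 0.155 with no overlap of the groups (limma adjusted p = 0.23, or 0.00838 without DMSO hypoxia replicate 1), and in hypoxia -0.16 (limma adjusted p = 0.497), a direction that turned without that library (0.066, limma adjusted p = 0.541) and with array weights (0.029).

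Since both values are per length, Cdt1 RNA can be set against that of its inhibitor within each library. The 2 genes differ in transcript length (2189 and 856 bases), and the deviations of DMSO hypoxia replicate 1 followed length, so its ratio is less comparable. The part of length in the ratio was not tested. The Cdt1 to Gmnn ratio was 0.802, 0.724 and 0.807 with MLN4924 in hypoxia, 0.448, 0.691 and 0.717 with DMSO in hypoxia, 0.736, 0.895 and 0.763 with MLN4924 in normoxia, and 1.11, 1.18 and 1.03 with DMSO in normoxia. Only the 3 DMSO normoxia libraries held more Cdt1 than Gmnn RNA. Compared with DMSO normoxia, the log2 ratio differed by -0.87 with DMSO in hypoxia, -0.475 with MLN4924 in normoxia and -0.51 with both agents, each with p = 0.1 in a two-sided exact permutation test, the smallest p that 3 against 3 libraries allow. The first of these was -0.651 without DMSO hypoxia replicate 1. MLN4924 against DMSO in hypoxia gave 0.36 (exact permutation p = 0.1), which was 0.14 without DMSO hypoxia replicate 1. Between both MLN4924 groups the ratios overlapped, with a log2 difference of -0.03 (exact permutation p = 0.8).

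**Figure D2:**
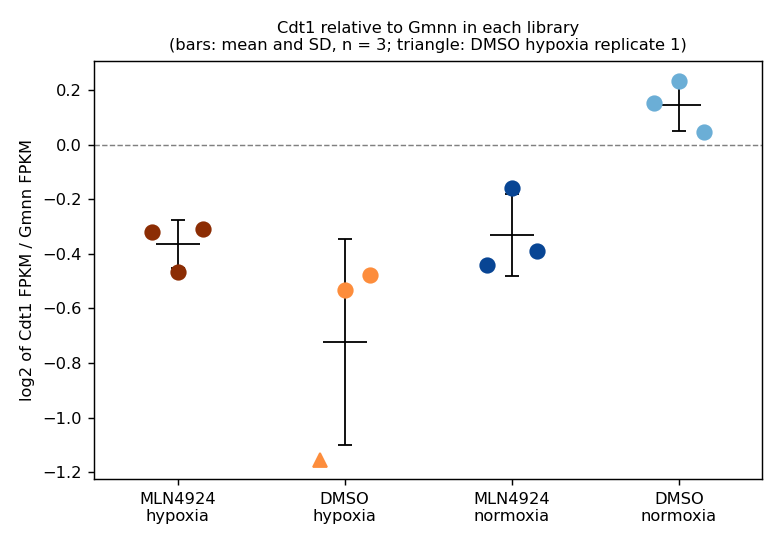
Log2 ratio of Cdt1 to Gmnn FPKM in each library, with the group mean and SD (n = 3). The dashed line at 0 marks equal FPKM, the 3 DMSO normoxia libraries lie above it (0.05 to 0.23), and DMSO hypoxia replicate 1 (triangle) is lowest at -1.16.

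Among the ligase parts, Ddb1, the adaptor between CUL4 and its receptors, had lower values in hypoxia. It had 217.57, 210.5 and 212.65 FPKM with MLN4924 in hypoxia, 158.52, 217.65 and 208.75 with DMSO in hypoxia, 242.91, 233.18 and 235.26 with MLN4924 in normoxia, and 238.52, 239.08 and 242.95 with DMSO in normoxia. All 6 hypoxia libraries were below all 6 normoxia libraries. Ddb1 fell in hypoxia under DMSO (log2 fold change -0.31 ± 0.097, limma adjusted p = 0.0308), with a log2 fold change of -0.17 (limma adjusted p = 0.00167) without DMSO hypoxia replicate 1. With all libraries this call was lost without any 1 of the DMSO normoxia libraries (limma adjusted p up to 0.0812), without a filter on low values, under both scalings of the libraries tried and in a fit of those 2 groups alone (0.145). With MLN4924 the difference between the oxygen levels was -0.15 (limma adjusted p = 0.29, or 0.00167 without DMSO hypoxia replicate 1).

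Dtl, the receptor that recognises Cdt1 and Kmt5a on Pcna, moved little. Its libraries had 23.86, 23.57 and 25.55 FPKM with MLN4924 in hypoxia, 19.97, 20.55 and 22.02 with DMSO in hypoxia, 22.16, 22.87 and 23.59 with MLN4924 in normoxia, and 22.97, 21.05 and 23.1 with DMSO in normoxia. Each group overlapped its neighbour in level, and MLN4924 hypoxia did not overlap DMSO hypoxia. Dtl rose with MLN4924 in hypoxia (0.21 ± 0.062, 1.16-fold, limma adjusted p = 0.0305), and the call was lost without DMSO hypoxia replicate 2 or any MLN4924 hypoxia library (limma adjusted p up to 0.114), with libraries rescaled to the same total (0.0516) and in a fit of those 2 groups alone (0.148). In normoxia MLN4924 gave 0.03 with a 95% interval of -0.11 to 0.17.

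Pcna, on which the ligase meets its substrates, had 366.66, 382.85 and 371.07 FPKM with MLN4924 in hypoxia and 457.56, 329.71 and 348.85 with DMSO in hypoxia. In normoxia it had 309.65, 313.51 and 312.38 FPKM with MLN4924 and 334.17, 310.86 and 329.95 with DMSO. No Pcna comparison passed the threshold with all libraries in the reported settings, the nearest being hypoxia under MLN4924 (0.26 ± 0.1, limma adjusted p = 0.0802). Hypoxia under MLN4924 passed under either scaling of the libraries, with array weights and in a fit of those groups alone. Both agents against neither passed with libraries rescaled to the same total, array weights and those groups alone. Hypoxia under DMSO passed with that rescaling (limma adjusted p = 0.0406). The MLN4924 difference in hypoxia was -0.005 (limma adjusted p = 0.978) with all libraries and 0.139 (limma adjusted p = 0.0204) without DMSO hypoxia replicate 1. Settings other than leaving out single libraries gave -0.005 to 0.105, and leaving out each library in turn gave -0.097 to 0.139. Without DMSO hypoxia replicate 1 Pcna was also higher in hypoxia under MLN4924 (limma adjusted p = 0.000245) and with both agents against neither (limma adjusted p = 0.000857).

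Kmt5a, which places a single methyl group on H4K20, was the only 1 of the 9 genes called lower with MLN4924 in hypoxia. It had 18.28, 18.73 and 18.1 FPKM with MLN4924 in hypoxia, 25.65, 21.49 and 23.41 with DMSO in hypoxia, 26.84, 26.31 and 28.08 with MLN4924 in normoxia, and 27.08, 25.65 and 27.2 with DMSO in normoxia. The 3 libraries with both agents were below all others, and the other 3 groups overlapped their neighbours in level. Kmt5a fell with MLN4924 in hypoxia (log2 fold change -0.34 ± 0.067, limma adjusted p = 0.00451, or 0.0673 in a fit of those 2 groups alone), in hypoxia under MLN4924 (-0.54 ± 0.067, limma adjusted p = 0.000252) and with both agents against neither (-0.51 ± 0.067, limma adjusted p = 0.000191). In normoxia MLN4924 gave 0.02 with a 95% interval of -0.13 to 0.17. Hypoxia under DMSO gave -0.18 ± 0.067 (limma adjusted p = 0.0647), and -0.24 without DMSO hypoxia replicate 1 (limma adjusted p = 0.00537).

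Counted over the 9 genes, the comparisons that hold MLN4924 hypoxia had the most calls with the reported settings. With MLN4924 against DMSO in hypoxia 4 genes passed, Cdt1, Cdc6 and Dtl higher and Kmt5a lower, beside 25.5% of all tested genes (12.2% higher and 13.3% lower). In hypoxia under MLN4924 there were 4, Cdt1, Gmnn and Cdc6 higher and Kmt5a lower, beside 28.2% of all genes (11.7% higher, 16.5% lower). Both agents against neither gave 5, Cdt1, Gmnn, Cdc6 and Orc6 higher and Kmt5a lower, beside 35.8% (14.6% higher, 21.2% lower). Hypoxia under DMSO gave 2, Gmnn higher and Ddb1 lower, beside 33.2% (13.8% higher, 19.4% lower), and MLN4924 in normoxia gave 0 beside 20% (9.33% higher, 10.7% lower), with 2 genes, Cdt1 and Cdc6, at an unadjusted limma p under 0.05. The share of the 9 genes called was 44.4%, 44.4%, 55.6%, 22.2% and 0% in that order, each within 2 genes of the share of all genes. Leaving out DMSO hypoxia replicate 1 gave 6 calls (32.4% of all genes, 16.8% higher and 15.7% lower), 7 (42.6%, 17.9% and 24.7%), 7 (49.3%, 20.1% and 29.3%), 4 (38.7%, 14.8% and 23.9%) and 4 (34.2%, 16% and 18.2%) in the same order. The 4 with MLN4924 in normoxia were then Gmnn, Cdc6 and Orc6 higher and Cdt1 lower. Other libraries moved the counts as well. Leaving out DMSO hypoxia replicate 2 gave 5 calls in hypoxia under DMSO (Gmnn, Pcna, Cdc6 and Orc6 higher, Ddb1 lower), 1 with MLN4924 in normoxia (Cdt1) and 2 with MLN4924 in hypoxia (Cdc6 and Kmt5a). The same 2 genes were left in the last comparison without MLN4924 hypoxia replicate 2 or 3, and Cdt1 and Kmt5a in hypoxia under MLN4924 without replicate 3 of MLN4924 hypoxia. Hypoxia under DMSO kept only Gmnn without any 1 of the DMSO normoxia libraries, and MLN4924 in normoxia gained Cdt1 without DMSO normoxia replicate 3. In fits of the groups compared alone, MLN4924 in hypoxia gave 0 calls and MLN4924 in normoxia gave 4, so the order of the counts depends on the fit. The ranges of the 2 groups did not overlap for 5 of 9 genes (38% of all genes), 7 (53.3%), 8 (58%), 3 (45.2%) and 4 (48.5%), again in that order. Median log2 fold changes of the 9 genes were 0.14, 0.13, 0.20, 0.10 and 0.02, beside -0.005, -0.05, -0.07, -0.08 and -0.03 over all tested genes. These comparisons share libraries and are not independent of each other.

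**Figure D3:**
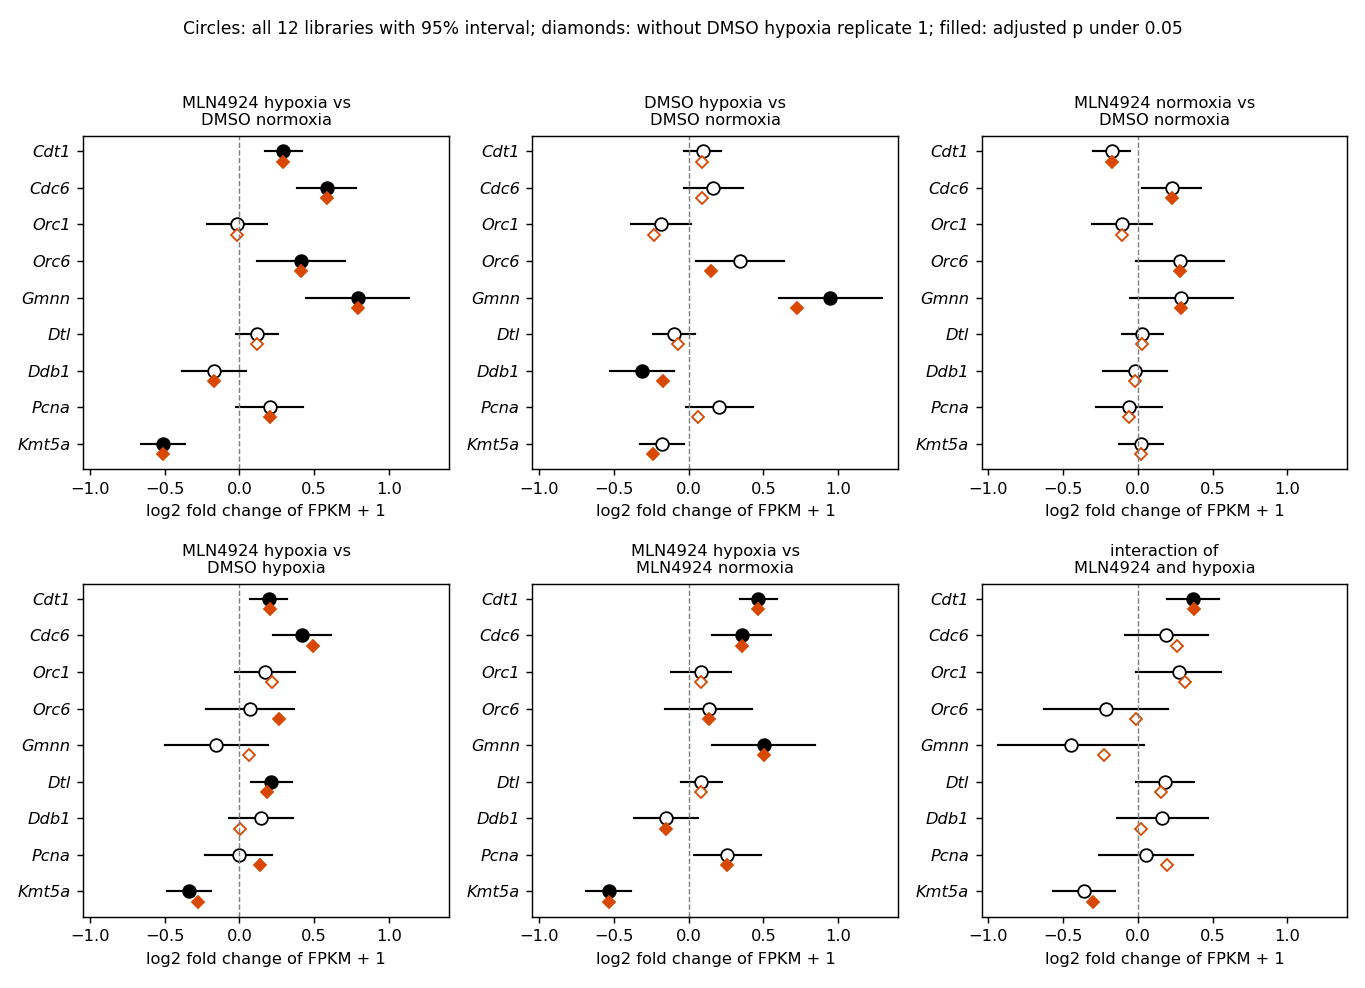
Log2 fold change of FPKM + 1 for the 9 genes in the 6 comparisons, the first group named over the second. Circles with 95% intervals use all 12 libraries, diamonds leave out DMSO hypoxia replicate 1, and filled symbols have an adjusted p under 0.05. Filled circles are seen for Cdt1, Cdc6 and Kmt5a in all 3 comparisons of MLN4924 hypoxia and for no gene in MLN4924 normoxia against DMSO normoxia.

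Of 13 other genes of the pre-replicative complex, 4 rose with MLN4924 in hypoxia (Mcm2, Mcm7, Lrwd1, Kat7) and 0 fell. In normoxia MLN4924 gave 0 higher and 4 lower, or 3 higher and 5 lower without DMSO hypoxia replicate 1. In hypoxia under MLN4924 6 rose and 1, Orc2, fell, with both agents against neither 4 rose and 0 fell, and in hypoxia under DMSO 0 rose and 2, Orc2 and Mcm2, fell (with median-of-ratios scaling Mcm6 and Mcm7 rose and Mcm2 fell). The share of this list called in either direction was 30.8%, 53.8%, 30.8%, 15.4% and 30.8%, in the order used for the 9 genes. Over all tested genes it was 25.5%, 28.2%, 35.8%, 33.2% and 20%. Without DMSO hypoxia replicate 1 the shares of all genes were 32.4%, 42.6%, 49.3%, 38.7% and 34.2%. The 6 MCM2-7 helicase genes are a subset looked at after their values were seen. In normoxia MLN4924 lowered 4 of them (Mcm2, Mcm4, Mcm5, Mcm6), with log2 fold changes of -0.32 to 0.08 over the 6, and 3 under either scaling of the libraries. In hypoxia MLN4924 raised 2 (Mcm2 and Mcm7, range 0.055 to 0.245), and between the oxygen levels with MLN4924 5 rose (all but Mcm2, range 0.16 to 0.40), 4 with libraries rescaled to the same total and 6 with median-of-ratios scaling. Mcm5, for example, averaged 82 FPKM with MLN4924 in hypoxia, 75.7 with DMSO in hypoxia, 65.6 with MLN4924 in normoxia and 81.7 with DMSO in normoxia. The interaction passed for Mcm2 (0.49 ± 0.091) and Mcm4 (0.30 ± 0.06), and for 5 of the 6 without DMSO hypoxia replicate 1. Over all tested genes it passed for 1.88%, and for 5.51% without that library.

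Genes of origin firing and the replicative helicase were mostly higher with both agents, 8 of 14 rising and 1 falling against DMSO normoxia. With MLN4924 in hypoxia 6 rose and 1 fell, and in hypoxia under MLN4924 6 rose and 2 fell. In hypoxia under DMSO 5 rose and 1 fell. With MLN4924 in normoxia 2 rose and 1 fell, or 6 and 1 without DMSO hypoxia replicate 1. Of all tested genes 34.2% were called with MLN4924 in normoxia in that fit. With all libraries, the share of this list called was 64.3%, 50%, 57.1%, 42.9% and 21.4% in this order, starting with both agents. Over all tested genes it was 35.8%, 25.5%, 28.2%, 33.2% and 20%. Recql4, a helicase needed to start replication, rose with MLN4924 in hypoxia by 0.83 ± 0.121 (1.777-fold, limma adjusted p = 0.000779), and so did Mcm10, a helicase activator, by 0.82 ± 0.153 (limma adjusted p = 0.00323). Donson rose in hypoxia under MLN4924 by 0.83 ± 0.114 (limma adjusted p = 0.000487), and Gins4 and Mtbp rose with both agents against neither by 0.67 and 0.61.

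Among 20 S phase genes driven by E2F, 8 rose and 0 fell with MLN4924 in hypoxia, 7 rose and 0 fell in hypoxia under MLN4924, and 11 rose and 0 fell with both agents against neither. In hypoxia under DMSO 3 rose and 2 fell (5 and 0 with median-of-ratios scaling), and with MLN4924 in normoxia 4 rose and 1, Lig1, fell (no fall under either scaling). Leaving out DMSO hypoxia replicate 1 gave 11 higher and 1 lower in hypoxia under MLN4924, and 7 and 2 with MLN4924 in normoxia. The shares of all genes were then 42.6% and 34.2%. With all libraries, the median log2 fold changes of the S phase genes in the 5 comparisons were 0.24, 0.20, 0.38, -0.003 and 0.10. With all libraries, the share of this list called was 40%, 35%, 55%, 25% and 25% in the same order. Over all tested genes it was 25.5%, 28.2%, 35.8%, 33.2% and 20%. Rrm2, a subunit of ribonucleotide reductase, rose by 0.84 ± 0.062 with both agents (1.795-fold, limma adjusted p = 3.77e-06), Chaf1b, a histone chaperone subunit, by 0.71 ± 0.067, and the factor E2f1 by 0.67 ± 0.105. E2f1 rose by 0.81 in hypoxia under either DMSO or MLN4924, and Slbp, which binds histone mRNA, rose by 0.59 in hypoxia under DMSO.

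Of 20 G2/M genes, 0 rose and 12 fell with MLN4924 in hypoxia, where in normoxia it gave 9 higher and 0 lower. In hypoxia under DMSO 14 were higher and 0 lower. In hypoxia under MLN4924 0 rose and 8 fell (1 and 7 with libraries rescaled to the same total, 1 and 6 with median-of-ratios scaling), and both agents against neither gave 5 higher and 4 lower. With the reported settings, the share of this list called was 60%, 45%, 70%, 40% and 45% in that order. Over all tested genes it was 25.5%, 20%, 33.2%, 28.2% and 35.8%. The interaction was negative and past the threshold for 10 of 20 and positive for 0, against 0.926% lower and 0.958% higher over all genes (2.21% and 3.3% without DMSO hypoxia replicate 1). Leaving out DMSO hypoxia replicate 1 gave 15 lower with MLN4924 in hypoxia, 15 higher with MLN4924 in normoxia, 16 higher in hypoxia under DMSO, 8 higher and 6 lower with both agents, and 17 lower for the interaction. The shares of all genes in that fit were 32.4%, 34.2%, 38.7% and 49.3% in the order of these pairwise comparisons. Ube2c, a ubiquitin-conjugating enzyme of mitosis, fell with MLN4924 in hypoxia, with a log2 fold change of -0.81 ± 0.096 (limma adjusted p = 0.000229), as did the cyclin Ccnb2, with a log2 fold change of -0.80 ± 0.091. Plk1, a mitotic kinase, fell in hypoxia under MLN4924, with a log2 fold change of -0.81 ± 0.059 (limma adjusted p = 6.68e-06), as did the cyclin Ccnb1, with a log2 fold change of -0.64 ± 0.051. Kif23 and Bub1 rose in hypoxia under DMSO by 1.01 ± 0.103 and 0.81 ± 0.082. Gmnn, whose protein accumulates from S phase to mitosis, had no called change with MLN4924 in hypoxia (-0.16, 95% interval -0.50 to 0.19, or 0.066 without DMSO hypoxia replicate 1).

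**Figure D4:**
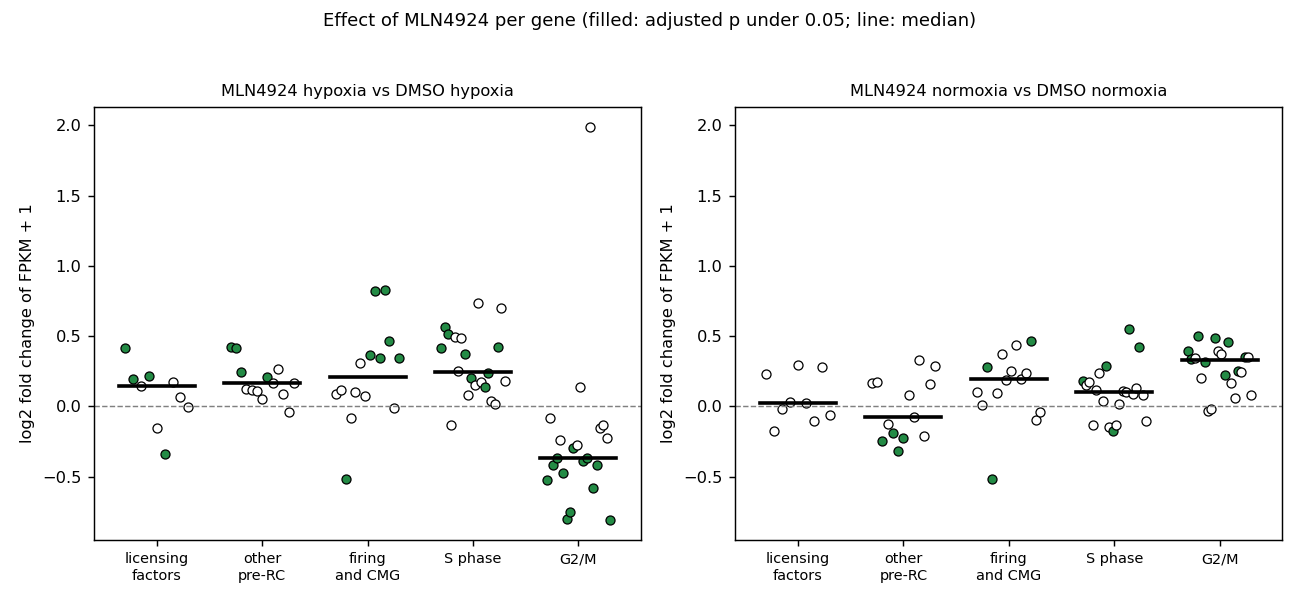
Log2 fold change of FPKM + 1 with MLN4924 over DMSO, in hypoxia (left) and normoxia (right), for the 9 genes and 4 lists of related genes. Points are genes, filled where the adjusted p is under 0.05, and lines are medians (S phase 0.24 and 0.10, G2/M -0.37 and 0.33). The open G2/M point at 1.99 is Mki67, listed at 0 FPKM in DMSO hypoxia replicate 1 and at 88.01 and 84.45 FPKM in the other 2 libraries of that group.

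The other substrates that CRL4 with Dtl takes on Pcna did not move together. Cdkn1a, the p21 inhibitor of cyclin-dependent kinases, had 133.58 to 137.86 FPKM with MLN4924 in hypoxia, 155.45 to 170.75 with DMSO in hypoxia, 30.93 to 33.65 with MLN4924 in normoxia and 15.89 to 18.26 with DMSO in normoxia. The 4 groups did not overlap. Cdkn1a rose in hypoxia under DMSO 9.037-fold (log2 3.18 ± 0.062, limma adjusted p = 1.18e-09) and under MLN4924 4.071-fold (2.02 ± 0.062, limma adjusted p = 2.16e-08). MLN4924 raised it in normoxia 1.872-fold and lowered it in hypoxia, with a log2 fold change of -0.25 ± 0.062 (limma adjusted p = 0.016), with an interaction of -1.151 ± 0.088 (limma adjusted p = 0.000852). Pold4, a subunit of DNA polymerase delta, averaged 25.6 ± 0.201 FPKM with MLN4924 in hypoxia, 41.5 ± 2.97 with DMSO in hypoxia, 17.4 ± 0.975 with MLN4924 in normoxia and 26.7 ± 4.41 with DMSO in normoxia, so that it fell with MLN4924 at both oxygen levels (-0.67 and -0.58, limma adjusted p = 0.00128 and 0.0035). Tdg, a thymine DNA glycosylase, fell in hypoxia under MLN4924 (-0.57, limma adjusted p = 0.000636) and under DMSO (-0.25, limma adjusted p = 0.0388), the second a call lost with median-of-ratios scaling. Ercc5, a repair nuclease, fell with MLN4924 in hypoxia (-0.375, limma adjusted p = 0.0215), and Fbh1, a helicase, fell with MLN4924 in normoxia (-0.42, limma adjusted p = 0.0247).

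The 11 other CRL4 parts and adaptors gave 0 higher and 2 lower with MLN4924 in hypoxia, 1 and 2 in hypoxia under MLN4924, 1 and 2 with both agents, 3 and 1 in hypoxia under DMSO, and 0 with MLN4924 in normoxia, where 3 had an unadjusted limma p under 0.05. When DMSO hypoxia replicate 1 was left out, MLN4924 in normoxia gave 1 higher and 3 lower, hypoxia under MLN4924 gave 2 and 4, and both agents gave 2 and 5. Cul4b, 1 of the 2 CUL4 scaffolds, fell in hypoxia under MLN4924, with a log2 fold change of -0.85 ± 0.182 (limma adjusted p = 0.00585), and with both agents, with a log2 fold change of -0.71 ± 0.182. The 10 genes that load and unload the clamp gave 2 higher and 0 lower with MLN4924 in hypoxia, 1 and 0 in hypoxia under MLN4924, 2 and 0 with both agents, 1 and 1 in hypoxia under DMSO, and 2 and 1 with MLN4924 in normoxia. When that library was left out, 5 rose and 2 fell in hypoxia under MLN4924 and 4 and 2 with both agents. The shares of all genes without that library were 34.2% with MLN4924 in normoxia, 42.6% in hypoxia under MLN4924 and 49.3% with both agents. With all libraries, 18.2%, 27.3%, 27.3%, 36.4% and 0% of the CRL4 list were called, in the order used for the 9 genes. For the clamp genes these shares were 20%, 10%, 20%, 20% and 30%. Over all tested genes they were 25.5%, 28.2%, 35.8%, 33.2% and 20%. Pclaf, a Pcna-binding factor, rose 2.008-fold with both agents (1.01 ± 0.099, limma adjusted p = 2.86e-05) and 1.653-fold with MLN4924 in normoxia, and Chtf18, a clamp loader subunit, rose by 0.70 ± 0.124 with MLN4924 in hypoxia.

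Other enzymes that destroy or phosphorylate licensing factors numbered 15. Of these 2 rose and 5 fell with MLN4924 in hypoxia, 3 and 2 in hypoxia under MLN4924, 7 and 2 with both agents, 5 and 1 in hypoxia under DMSO, and 6 and 0 with MLN4924 in normoxia. The counts without DMSO hypoxia replicate 1 were 4 and 4, 4 and 4, 8 and 3, 6 and 2, and 6 and 1 in the same order. Of all tested genes 32.4%, 42.6%, 49.3%, 38.7% and 34.2% were called in that fit, again in this order. The median log2 fold change of the list with MLN4924 in hypoxia was then 0.079, against -0.132 with all libraries. With all libraries, the share of this list called was 46.7%, 33.3%, 60%, 40% and 40%, in the order used for the 9 genes. Over all tested genes it was 25.5%, 28.2%, 35.8%, 33.2% and 20%. Cdk2, the S phase kinase, rose in hypoxia under MLN4924 by 0.97 ± 0.059 (1.953-fold, limma adjusted p = 2.32e-06) and under DMSO by 0.67 ± 0.059. Ccne1, a cyclin partner of Cdk2, rose with MLN4924 in hypoxia by 0.605 ± 0.09, while Cdc20, an activator of the anaphase-promoting complex that degrades Gmnn, fell, with a log2 fold change of -0.62 ± 0.06. Fbxo5, an inhibitor of that complex, rose by 0.78 ± 0.096 with both agents and by 0.65 ± 0.096 in hypoxia under DMSO. Of the other H4K20 methylation genes 5 of 6 passed the filter on low values, and 1, Kmt5b, fell with MLN4924 in hypoxia (-0.77 ± 0.227, limma adjusted p = 0.0315) while 1, Kmt5c, rose in hypoxia under MLN4924 (0.69 ± 0.162, limma adjusted p = 0.01). Both add further methyl groups to H4K20, and both were named after their values were seen. The remaining 3 comparisons gave 0 calls in that list in limma, with 1 unadjusted p under 0.05 in hypoxia under DMSO, 1 with MLN4924 in normoxia and 0 with both agents. Leaving out DMSO hypoxia replicate 1 gave 2 calls, 1 and 1 there, and 2 in hypoxia under MLN4924. The shares of all genes in that fit are given above.

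For 4 of the 9 genes the most similar genes were found by the root mean square difference of log2(FPKM + 1), each gene centred on its mean over the 12 libraries. Nearest to Cdt1 were Grn and Usp28 (0.069 each) and Lig1 (0.07), where Cdt1 itself spread by 0.174. Lig1, the ligase that seals Okazaki fragments, averaged 73.8 FPKM with MLN4924 in hypoxia, 64.1 with DMSO in hypoxia, 56.5 with MLN4924 in normoxia and 63.8 with DMSO in normoxia, the order of Cdt1. Grn (257, 213, 183 and 209 FPKM) and Usp28 (6.11, 5.74, 4.25 and 4.97 FPKM, groups listed as for Lig1) had that order as well. Nearest to Cdc6 (spread 0.23) were Pold2 (0.069), Litaf (0.076) and Eif2d (0.082). Kmt5a (spread 0.222) was most like Mcl1 (0.059), Hnrnph1 (0.065) and Mepce (0.079). Dtl (spread 0.092) was most like Mxra8 (0.049), Lhfp (0.054) and Zfr (0.057).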

How the data were processed

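RNA was sequenced from 12 GC-2 libraries in 4 groups of 3. The authors deposited FPKM values, 1 column per library, rounded to 2 decimals. Per the submitters' processing notes, fastp, STAR, RSEM 1.3.3 and build mm39 were used, and their roles, the annotation and strandedness are not given in the sources used here. FPKM holds no counts, so depth is unknown and no counting interval is given. RSEM estimates can divide reads between a gene and its near copies, such as the pseudogenes of Pcna, and those values are uncertain to that extent.

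The tests took the 12311 genes that reached 1 FPKM in 3 or more libraries (all 9 members among them), as log2(FPKM + 1), with limma 3.58.1 in R 4.3.3: 1 mean per group, a spread shared by the 4 groups, an intensity trend, two-sided tests, and Benjamini-Hochberg adjustment over all tested genes of a comparison, with a threshold of 0.05. Fold changes on this scale understate those of low genes. The interaction is the hypoxia difference with MLN4924 minus that with DMSO. The step was tested on simulated data with the same spread in every library and with changes larger than those reported for the 9 genes. That test therefore does not bear on the smaller changes or on a library that stands apart. Replicate numbers were not used to pair libraries.

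The members and lists were chosen with earlier results of these data known. The 9 lists were other pre-replicative complex genes, origin firing and replicative helicase genes, other CRL4 parts, other PCNA-dependent substrates, clamp loading, other degraders and kinases, H4K20 methylation, E2F-driven S phase and G2/M genes, beside 6 marker lists, for macrophages, fibroblasts, Leydig cells, Sertoli cells, spermatogonia and later germ cells. A list gene was named at an adjusted p under 0.05, with a 1.5-fold or larger change and 5 FPKM or more on average where it was higher, up to 4 per list and comparison, and all 5 substrates were named. MCM genes, genes named without values and a few others were chosen after their values were seen. Alternatives were other pseudocounts, filters, scalings and variance models, a replicate block, and leaving out each library in turn. Promoters came from RefSeq (GRCm38.p6), matched by symbol. Transcript lengths came from GENCODE for that build, used by symbol for 97.5% of tested genes. No coordinates of the mm39 build were used.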

Additional observations from a re-analysis of the deposited data

Results flagged for a closer look

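The effect of MLN4924 on Cdt1 RNA differed between hypoxia and normoxia by a log2 difference of 0.37 in the interaction term (SE 0.079, limma adjusted p = 0.0449). MLN4924 raised Cdt1 within hypoxia by 0.20, higher in 3 of 3 libraries than every DMSO hypoxia library, and within normoxia the value was -0.17, lower in 3 of 3 libraries than every DMSO normoxia library. Group ranges did not overlap for 38% of all tested genes in the first comparison and for 48.5% in the second. The call within hypoxia was lost with the replicate block and in a fit of those groups alone. The interaction of Cdt1 was the only result among the 9 genes that differed between the oxygen levels past the threshold with all libraries, and leaving out any of 10 libraries moved its adjusted p to the other side of 0.05. It was also lost with no filter on low values, under either scaling, with no trend in the prior variance and with the replicate block.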

How the results depend on the processing

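Over the log2 fold changes of the 9 genes, 1076 of 1179 recomputed values kept their direction or had no call either way and kept their side of the threshold, 52 lost and 50 gained a call, and 1 reversed: Pcna with MLN4924 in hypoxia, 0.139 without DMSO hypoxia replicate 1 (-0.097 to 0.139 over the libraries left out). Calls among the 9 genes changed as follows, beside the libraries left out. In hypoxia under DMSO (2 with the reported settings) there was 1 with no filter on low values and in a fit of those groups alone, 4 with libraries rescaled to the same total and with array weights, and 2 with median-of-ratios scaling, which lost Ddb1 and gained Orc6. With MLN4924 in normoxia (0) there was 1 with a filter of at least 5 FPKM and 4 with array weights and with those groups alone. With MLN4924 in hypoxia (4) there were 0 with those groups alone, 3 with libraries rescaled to the same total (Dtl lost) and with the replicate block (Cdt1 lost), and 5 with array weights (Orc6 gained). In hypoxia under MLN4924 (4) there were 7 with those groups alone, 3 with no filter (Gmnn lost), 5 under either scaling (Pcna gained) and 6 with array weights (Ddb1 and Pcna gained). With both agents (5) there were 4 with no filter (Orc6 lost), 6 with libraries rescaled to the same total (Pcna gained) and with median-of-ratios scaling (Dtl gained), and 7 with array weights and with those groups alone (Ddb1 and Pcna gained). The interaction (1) gave 0 with no filter, with libraries rescaled to the same total, with median-of-ratios scaling, with no trend in the prior variance and with the replicate block, and 2 with array weights. Over all tested genes, a fit of the groups compared alone gave 2224 calls in hypoxia under DMSO (4093 as reported), 4068 with MLN4924 in normoxia (2467) and 1264 with MLN4924 in hypoxia (3137). Array weights gave 4524 with MLN4924 in normoxia, 5339 in hypoxia under MLN4924 (3473) and 843 for the interaction (232). Leaving out 1 library at a time gave 1 to 5 calls among the 9 genes in hypoxia under DMSO, 0 to 4 with MLN4924 in normoxia, 2 to 6 with MLN4924 in hypoxia, 2 to 7 in hypoxia under MLN4924, 4 to 7 with both agents and 0 to 2 for the interaction. Over all genes the same gave 3017 to 4768, 1676 to 4215, 2151 to 3993, 2523 to 5242, 3572 to 6075 and 90 to 678. The Cdt1 to Gmnn log2 difference ranged over -0.99 to -0.651, -0.56 to -0.42, 0.141 to 0.48, -0.09 to 0.051 and -0.558 to -0.459 in the first 5 of these comparisons. The cause of these changes was not tested. Median-of-ratios scaling moved the share of higher genes among those called to 52% in hypoxia under DMSO (41.5% as reported) and to 51.1% with both agents (40.7%).

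Among the lists, rescaling libraries to the same total moved counts past 1.5 times relative to the reported settings in E2F-driven S phase genes (3 against 5 with MLN4924 in normoxia, 2 against 1 for the interaction), in degraders and kinases (8 against 5 in hypoxia under MLN4924), in other CRL4 parts (1 against 0 with MLN4924 in normoxia, 1 against 2 with MLN4924 in hypoxia, 5 against 3 with both agents) and in clamp genes (5 against 2 with both agents). Median-of-ratios scaling did so in origin firing genes (5 against 3 with MLN4924 in normoxia) and clamp genes (2 against 1 in hypoxia under MLN4924). For the lists, both scalings and the fit without DMSO hypoxia replicate 1 were chosen after seeing the data.

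Same-numbered libraries of different groups did not deviate together (correlations of -0.0697 to 0.0993 over 18 pairs, 0 above 0.1, against -0.0919 to 0.0954 over 36 pairs of different numbers). With the replicate block the interaction had 132 calls over all genes and 0 among the 9, and Cdt1 with MLN4924 in hypoxia had an adjusted p of 0.0539 in limma, against 0.0261 without the block. A fit of 2 groups alone rests on 6 libraries, and without DMSO hypoxia replicate 1 that group rests on 2. Depth is unknown, so the precision of low genes such as Orc1 cannot be stated beyond the spread of 3 libraries.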
